A study of Homo sapiens with 6 samples.

Results

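Genes for molecular chaperones, the proteins that help others to fold, were followed in prometaphase HEK293T cells, an established embryonic kidney line. The 40 genes were chosen by symbol from 37879 gene rows on Illumina HumanWG-6 v3 arrays. They were 16 genes of the cytosolic heat shock system, 7 subunits of the chaperonin CCT, 3 mitochondrial chaperones and 14 genes of the endoplasmic reticulum (ER). Total RNA came from 3 samples transfected with an empty vector (control) and 3 transfected with a plasmid coding for Stau155-FLAG, a tagged form of the RNA-binding protein Staufen1 (Stau1). Cells of both groups received nocodazole, which stops spindle assembly, at 50 ng/ml for 15 h per the labels, whereas a longer time for this line stands in the methods of the study. The methods describe a Stau155-FLAG plasmid with a Rous sarcoma virus promoter and a retroviral vector that holds the same coding sequence. Which of them was used for these samples is not stated. Per the methods transfection was transient, so each sample could hold cells with and without plasmid. The labels number the replicates but do not name separate cultures, so p-values measure the spread between these samples, which may be technical. In RNA of whole cultures, fewer cells with a transcript and less of it per cell cannot be told apart.

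Cells keep a separate set of chaperones in each compartment. In the cytosol, Hsp70 and Hsp90 proteins work with J-domain and other co-chaperones, and heat shock factor 1 (HSF1) switches on many of their genes when unfolded protein builds up, through repeats of GAA and TTC called heat shock elements. CCT is a ring of related subunits that folds actin and tubulin. In the ER, unfolded protein starts the unfolded protein response, in which ATF6 and XBP1 raise chaperone genes, and many of those genes carry an ER stress element.

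Promoters of these genes were searched for both elements, and sites of genes described below are printed to show the letters. RefSeq windows of GRCh38.p14, from 250 bases before to 50 after a gene start, matched 38 of the 40 genes. The 3-unit heat shock element was searched as GAANNTTCNNGAA or TTCNNGAANNTTC, which are each other's reverse complement, so both strands were covered. It stood in 0.49% of all 35116 windows (0.608% of all genes) and in a window of 6 chaperone genes (HSP90AA1, HSP90AB1, HSPA8, DNAJA1, DNAJB6 and HSPD1). The 2-unit form, GAANNTTC or TTCNNGAA, lies within each 3-unit match and occurs in 13.5% of all windows (16.2% of all genes). It was held by 16 chaperone genes, 10 of 15 cytosolic, 3 of 7 CCT, 2 of 3 mitochondrial and 1 of 13 ER genes with a window. The ER stress element was searched on both strands as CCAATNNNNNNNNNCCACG or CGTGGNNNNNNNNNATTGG and stood in 0.0769% of all windows (0.0916% of all genes). Its 6 chaperone genes (HSPA5, HSP90B1, CALR, CANX, PDIA6 and XBP1) were all in the ER group. Each sequence below runs 5′ to 3′ on the strand of its gene and ends its matching letters the stated number of bases before the gene start. Capitals mark the units of the element, and a match describes letters and not binding. Only exact letters inside the window were counted, so a gene without a match may still hold a variant or more distant element.
HSPA1A (heat shock element, 2 units; chr6:31815426-31815455, plus strand, 99 bases): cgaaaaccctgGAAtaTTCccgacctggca
HSPA1B (heat shock element, 2 units; chr6:31827622-31827651, plus strand, 98 bases): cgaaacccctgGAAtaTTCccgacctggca
HSPB1 (heat shock element, 2 units; chr7:76302480-76302509, plus strand, 175 bases): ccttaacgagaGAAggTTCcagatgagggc
DNAJB1 (heat shock element, 2 units; chr19:14518456-14518485, minus strand, 70 bases): cgggcggggcgGAAggTTCtggagggggct
HSP90AA1 (heat shock element, 3 units; chr14:102087111-102087140, minus strand, 76 bases): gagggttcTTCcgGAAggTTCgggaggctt
HSP90AB1 (heat shock element, 3 units; chr6:44247823-44247852, plus strand, 100 bases): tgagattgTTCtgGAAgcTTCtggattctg
HSPD1 (heat shock element, 3 units; chr2:197500059-197500088, minus strand, 228 bases): attttctgGAAagTTCtgGAAccgagcgag
HSPA5 (ER stress element; chr9:125241385-125241414, minus strand, 48 bases): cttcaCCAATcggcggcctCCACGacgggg
HSP90B1 (ER stress element; chr12:103930211-103930240, plus strand, 176 bases): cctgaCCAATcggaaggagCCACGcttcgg
CALR (ER stress element; chr19:12938379-12938408, plus strand, 207 bases): ccacgCGTGGtcgaccatcATTGGtcggtg
XBP1 (ER stress element; chr22:28800597-28800626, minus strand, 34 bases): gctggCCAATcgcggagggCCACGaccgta
PDIA6 (ER stress element; chr2:10812847-10812876, minus strand, 68 bases): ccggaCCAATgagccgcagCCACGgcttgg

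The deposited intensities were background-corrected, quantile-normalized and put on a log2 scale, and all levels below are on that scale. A row was kept where at least 3 arrays detected it (detection p under 0.05, against negative control beads), which left 13285 rows, 38 of them chaperone genes. Control replicate 3 stood with the Stau1 arrays. Pearson's r across kept rows was 0.995 to 0.996 against them and 0.987 and 0.992 against the other controls. Each other array had its lowest r with control replicate 1 (0.987 to 0.991), and control replicate 2 had 0.991 to 0.994 against the Stau1 arrays. Results are therefore also given with single arrays left out. Here and below, values are in the order of replicates 1, 2 and 3. STAU1 itself read 11.21, 11.39 and 11.37 in the controls and 11.41, 11.53 and 11.48 with Stau1, a difference of 0.15 (SE 0.09, adjusted p = 0.999 by limma) with no overlap between the groups. The STAU1 row is a mean over more than 1 probe, and whether these read the plasmid transcript was not tested. The difference is thus no measure of how far Stau1 was overexpressed. By western blot the study reported less of the FLAG protein than of endogenous Stau1. The 5 HEK293T markers (NEFL, NEFM, VIM, KRT8 and KRT18) and the 5 mitotic markers were detected on all 6 arrays, while 8 of 9 markers of differentiated kidney, blood and liver were detected on none. All 5 HEK293T markers had a lower mean with Stau1, with a difference of -0.61 (SE 0.17, adjusted p = 0.999 by limma) for KRT8, a keratin, and of -0.11 to -0.02 for the others, and VIM and KRT8 did not overlap between the groups. Their part in the chaperone values was not tested.

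No chaperone gene passed the test. In simulated data the test recovered 81% of 2-fold and 1% of 1.5-fold changes, so smaller differences would mostly not be called. Among kept rows 0% were called at an adjusted p under 0.05 (limma, Benjamini-Hochberg), and the adjusted p of each kept chaperone gene was 0.999. At an unadjusted p under 0.05, 3.73% of all kept rows and 1 of the 38 chaperone genes (HSPB1) stood out. The groups did not overlap in 7.91% of kept rows and in 2 of the chaperone genes, DNAJB1 (higher with Stau1) and XBP1 (lower). Of the 38 genes, 19 had a higher mean with Stau1 and 19 a lower one. Their median difference, Stau1 minus control, was -0.00215, against -0.00214 over all kept rows. The median size of the difference, whatever its sign, was 0.08 for these genes and 0.09 for all kept rows.

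The even split over all 38 genes held an uneven one between compartments. In the cytosolic group 12 of 15 kept genes had a higher mean with Stau1 and in the ER group 12 of 13 had a lower one, beside 49.4% higher and 50.6% lower over all kept rows. These counts describe the values and were given no test, since the genes share their arrays and are not replicates. The median difference was 0.05 for the cytosolic group and -0.13 for the ER group.

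**Figure D1:**
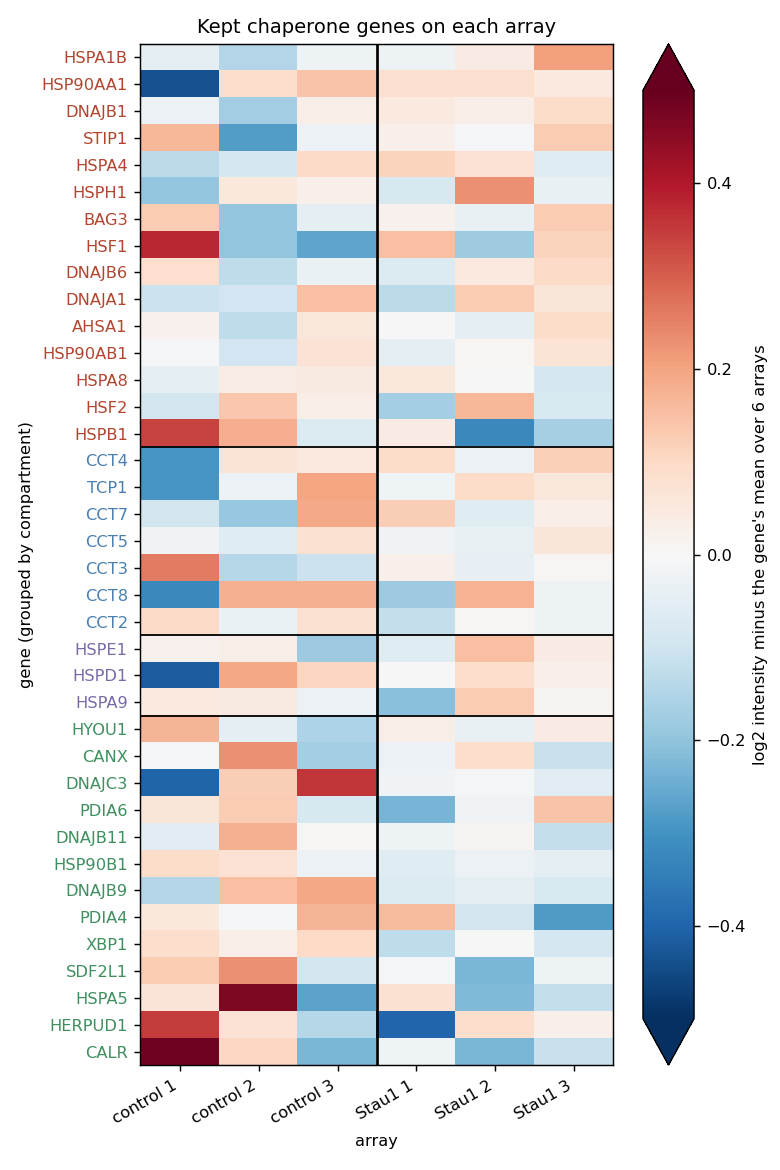
Heat map of the 38 kept chaperone genes (rows, grouped by compartment) on the 6 arrays (columns), coloured by log2 intensity minus the mean of the gene over the arrays, with the colour scale capped at 0.5 in either direction. Control replicate 1 holds several of the strongest colours in both directions, and the ER rows at the bottom are mostly red on control replicates 1 and 2 and pale or blue on the Stau1 arrays.

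Among the cytosolic Hsp70 proteins, HSPA1A and HSPA1B encode the same inducible Hsp70 from near-identical neighbouring genes, so the split of their signal between probes is uncertain. HSPA1B read 13.73, 13.63 and 13.75 in the controls and 13.75, 13.82 and 13.98 with Stau1. Control replicate 3 and Stau1 replicate 1 coincided, and the other Stau1 arrays lay above every control. The difference of 0.15 (SE 0.08, 95% interval -0.03 to 0.32) was the highest of the cytosolic group, and was 0.0818 without Stau1 replicate 3. The HSPA1A row lay at background, with levels of 4.70 to 4.82 and a detection p of 0.478 to 0.796, and so was not kept. HSPA8, the constitutive Hsc70, differed by -0.02 and HSPA4, an Hsp110-type nucleotide exchange factor of Hsp70, by 0.08. HSPH1, its relative Hsp105, also differed by 0.08.

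HSP90AA1, the inducible Hsp90, read 12.84, 13.36 and 13.42 in the controls against 13.36, 13.36 and 13.32 with Stau1. Control replicate 1 was low and the other 5 arrays lay close together, and the difference of 0.14 (SE 0.12) became -0.0454 without that array. HSP90AB1, the constitutive form, differed by 0.02. STIP1, which bridges Hsp70 and Hsp90, differed by 0.10 (SE 0.11), and AHSA1, an activator of the Hsp90 ATPase, by 0.03. STIP1 was the only chaperone gene with an unadjusted p under 0.05 when control replicate 1 was left out (0.203, adjusted p = 0.972 by limma), where 4.14% of all kept rows had one.

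DNAJB1, the Hsp40 that serves inducible Hsp70, read 10.06, 9.91 and 10.12 in the controls and 10.14, 10.12 and 10.18 with Stau1. Every Stau1 array lay above every control, though Stau1 replicate 2 and control replicate 3 are equal to the second decimal. The difference was 0.12 (SE 0.10), and 0.057 without control replicate 2. BAG3, a co-chaperone of Hsp70 in selective autophagy, read 10.57, 10.25 and 10.40 against 10.47, 10.41 and 10.58. Its groups overlapped, with a difference of 0.08 (SE 0.11). The J-domain proteins DNAJA1 and DNAJB6 differed by 0.04 and 0.05.

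HSPB1, the small heat shock protein Hsp27, had the largest difference of the 38 kept genes. It read 11.60, 11.44 and 11.19 in the controls and 11.30, 10.94 and 11.09 with Stau1. Control replicate 3 lay below Stau1 replicate 1, so the groups overlapped. The means were 11.41 ± 0.21 (SD, n = 3) and 11.11 ± 0.18 (SD, n = 3), a difference of -0.30 (SE 0.12, 95% interval -0.56 to -0.03, adjusted p = 0.999 by limma), or 0.813-fold. The unadjusted p was no longer under 0.05 with median scaling, with no variance trend, or without control replicate 1, control replicate 2, Stau1 replicate 2 or Stau1 replicate 3. With single arrays left out, the difference ran from -0.409 to -0.204. The mean of HSPB1 was lower with Stau1, while those of DNAJB1 and HSPA1B in the same group were higher. The 2-unit element stood in promoter windows of all 3, as in 10 of 15 cytosolic genes and 16.2% of all genes. Whether it bears on these differences was not tested.

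The transcripts of both heat shock factors overlapped between the groups. HSF1 read 7.60, 7.03 and 6.96 against 7.37, 7.05 and 7.34, with a difference of 0.05 (SE 0.19). Control replicate 1 was the highest array and the other controls the lowest. HSF2, a relative of HSF1, read 10.20, 10.43 and 10.33 against 10.12, 10.46 and 10.22, with a difference of -0.05 (SE 0.12). HSF1 is regulated largely by protein interactions and modification, which transcript levels do not measure.

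The subunits of CCT showed no common direction. Of the 7 subunits, 4 had a higher mean with Stau1 and 3 a lower one, with a median difference of 0.00156. CCT4 had the highest difference, with 9.13, 9.50 and 9.48 in the controls and 9.52, 9.40 and 9.55 with Stau1. Apart from control replicate 1 its arrays were interleaved, and the difference of 0.12 (SE 0.13) was 0.000623 without that array. CCT2 had the lowest difference, with 13.45, 13.32 and 13.44 against 13.24, 13.36 and 13.33. Its Stau1 replicate 1 was lowest and the groups overlapped, with a difference of -0.09 (SE 0.08). TCP1, the alpha subunit, CCT3, CCT5, CCT7 and CCT8 differed by -0.02 to 0.09. In each of the 7 subunits the controls spanned a wider range than the Stau1 arrays (median range 0.379 against 0.127), where 68.2% of all kept rows did so. CCT8 ran from 13.26 in control replicate 1 to 13.76 in control replicates 2 and 3, a spread far above its difference of -0.02.

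In mitochondria, HSPD1 (Hsp60) and HSPE1 (Hsp10) form the folding chamber, and HSPA9, mortalin, draws proteins through the inner membrane. HSPE1 read 13.33, 13.34 and 13.13 in the controls and 13.25, 13.46 and 13.35 with Stau1, a difference of 0.09 (SE 0.09) that was 0.017 without control replicate 3. HSPD1 read 12.36, 12.97 and 12.88 against 12.78, 12.86 and 12.80, a difference of 0.08 (SE 0.13). HSPA9 read 12.09, 12.08 and 12.01 against 11.83, 12.16 and 12.05, a difference of -0.04 (SE 0.10). All 3 genes overlapped between the groups, and the difference of HSPD1 was -0.112 without control replicate 1, the lowest array.

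In the ER, HSPA5 encodes BiP, the Hsp70 of this compartment and the usual reporter of the unfolded protein response. HSPA5 read 9.07, 9.47 and 8.73 in the controls and 9.08, 8.78 and 8.88 with Stau1. The highest and the lowest array were both controls. The difference was -0.18 (SE 0.17, 95% interval -0.54 to 0.19). Without control replicate 3 it was -0.355 (adjusted p = 0.356 by limma), and leaving out other arrays brought it as high as 0.0131.

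CALR, the calcium-binding lectin chaperone calreticulin, had the lowest difference of the ER group. It read 11.04, 10.66 and 10.33 in the controls against 10.53, 10.32 and 10.44 with Stau1. Controls 1 and 2 lay above all Stau1 arrays and control 3 among them. The difference was -0.24 (SE 0.15, 95% interval -0.57 to 0.08), at the 4.95 percentile of kept rows. It was -0.0587 without control replicate 1 (adjusted p = 0.99 by limma) and -0.415 without control replicate 3 (adjusted p = 0.218 by limma). Its membrane-bound partner CANX, calnexin, differed by -0.03.

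XBP1, the transcription factor of the IRE1 branch, was the ER gene whose groups did not overlap. It read 12.55, 12.50 and 12.56 in the controls and 12.33, 12.46 and 12.38 with Stau1, a difference of -0.15 (SE 0.08, 95% interval -0.32 to 0.03). The row cannot tell the spliced from the unspliced transcript. HERPUD1, which acts in ER-associated degradation, read 10.35, 10.07 and 9.86 against 9.60, 10.09 and 10.03. The groups overlapped, with Stau1 replicate 1 lowest and a difference of -0.19 (SE 0.15). That difference was -0.0366 without Stau1 replicate 1, -0.0585 without control replicate 1 and -0.305 without control replicate 3. DNAJB9, a J-domain partner of BiP, read 8.46, 8.75 and 8.79 against 8.53, 8.55 and 8.52. Its Stau1 arrays agreed closely and lay within the control range, with a difference of -0.13 (SE 0.13) that ran from -0.236 without control replicate 1 to -0.0677 without control replicate 3.

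HYOU1, an Hsp110-type exchange factor for BiP, was the single ER gene with a higher mean. It read 9.74, 9.52 and 9.42 in the controls and 9.61, 9.54 and 9.61 with Stau1, a difference of 0.02 (SE 0.12). SDF2L1, a partner of the ER J-domain proteins, differed by -0.17 (SE 0.10) and HSP90B1, the ER Hsp90 GRP94, by -0.09. The disulfide isomerases PDIA4 and PDIA6 and the J-domain proteins DNAJB11 and DNAJC3 differed by -0.14 to -0.05. PDIA3 lay at background (4.68 to 4.87, detection p 0.374 to 0.838) and was not kept. Whether the PDIA3 and HSPA1A probes fail or the transcripts are scarce was not tested.

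**Figure D2:**
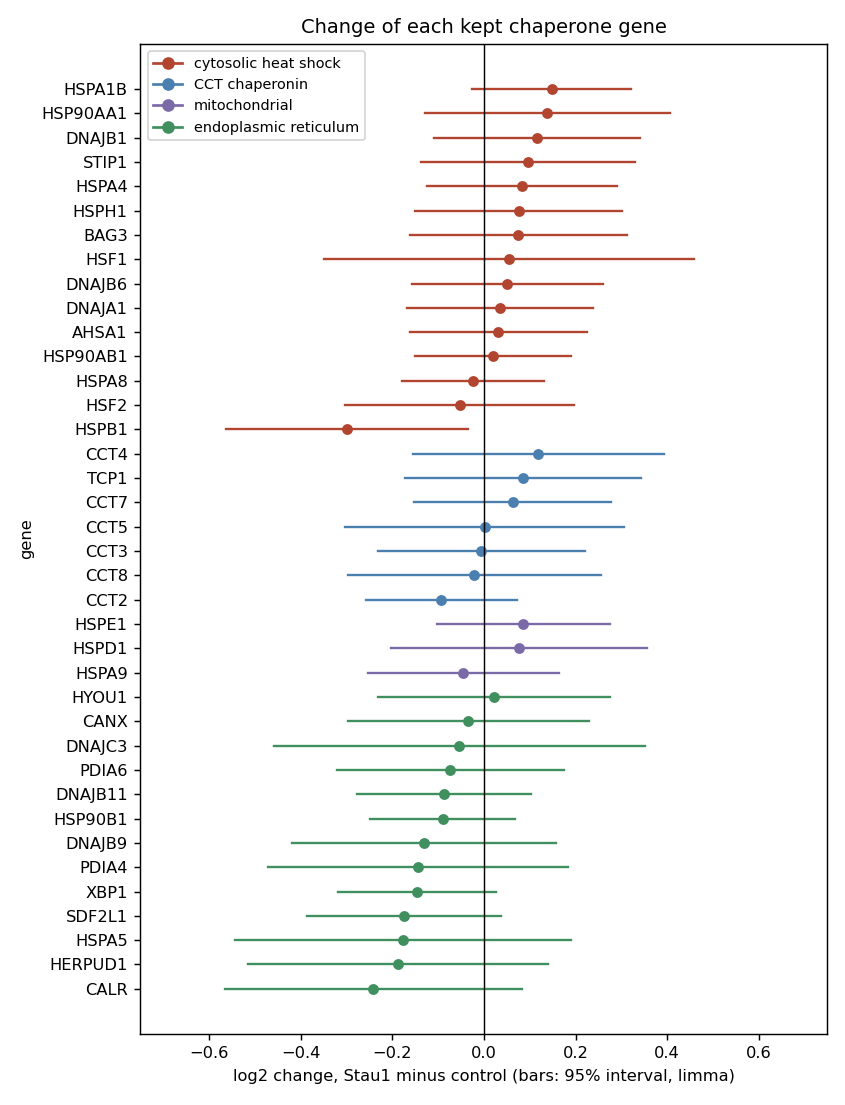
Difference in log2 intensity, Stau1 minus control (x axis), for each of the 38 kept chaperone genes (y axis, ordered within its compartment), with bars for the limma 95% interval. Each interval crosses 0 except that of HSPB1, and 12 of 13 ER points lie left of 0 while 12 of 15 cytosolic points lie right of it.

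Genes that hold the printed elements were set beside the whole of their groups. The 6 ER genes with an ER stress element all had a lower mean with Stau1, with a median difference of -0.118, close to the -0.13 of all 13 kept ER genes. Of the 5 cytosolic genes with a 3-unit heat shock element, 4 had a higher mean and 1 a lower one, with a median of 0.0352. With the 2-unit element included, 7 of 9 kept cytosolic genes were higher, with a median of 0.051, beside 0.05 for the whole group, and HSPB1 and HSPA8 were the lower ones. Outside the cytosol the 2-unit element stood in TCP1 and CCT4, which were higher, in CCT2, which was lower, in HSPD1 (higher) and HSPA9 (lower), and in CANX (lower).

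Spread among the controls was as large as most of these differences. The range of the 3 controls exceeded the difference between the groups in 36 of 38 chaperone genes (94.7%) and in 91.6% of all kept rows. The median control range of a chaperone gene was 0.288 and the median Stau1 range 0.165, beside 0.332 and 0.222 over all kept rows. Control replicate 3 lay nearer to the Stau1 mean than to the average of its own group mates in 27 of 38 chaperone genes (71.1%) and in 70.1% of all kept rows. Bead-to-bead standard errors were 1.65% to 6.36% of the intensity for the 26 kept genes with a single probe.

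The median of each compartment was then followed on each array. After centring each gene on its mean, the ER median was 0.0647, 0.123 and -0.0804 in the controls and -0.0254, -0.0294 and -0.078 with Stau1. The cytosolic median was -0.0297, -0.0964 and 0.0315 in the controls and 0.0224, 0.033 and 0.0684 with Stau1. In both compartments control replicate 3 lay with the Stau1 arrays. The ER median minus the cytosolic median was above 0 on control replicates 1 and 2 (0.0944 and 0.22) and below 0 on control replicate 3 (-0.112) and on the Stau1 arrays (-0.0478, -0.0624 and -0.146). Why control replicate 3 lay with the Stau1 arrays was not tested.

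**Figure D3:**
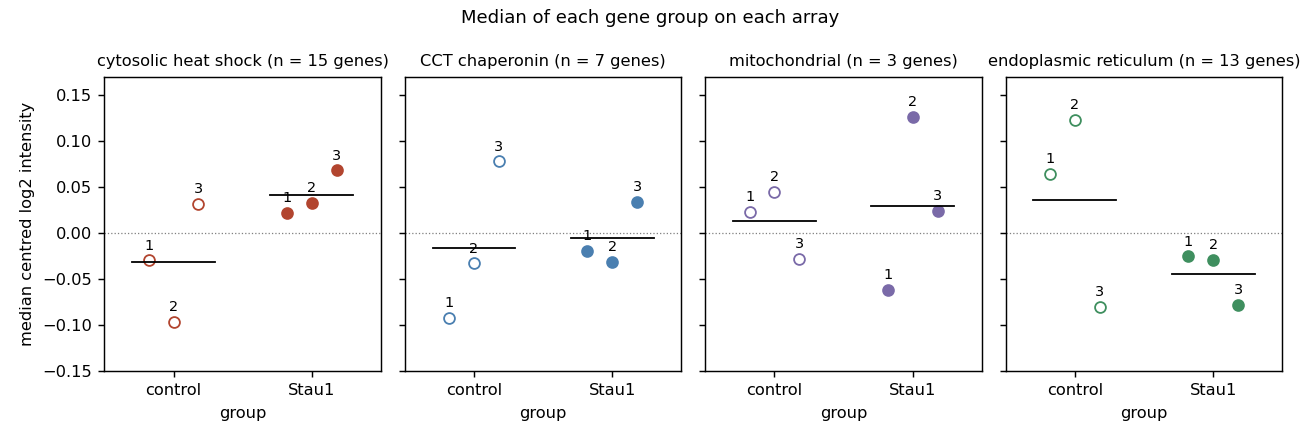
Median centred log2 intensity (y axis) of the kept genes in each compartment on each array, with controls as open and Stau1 samples as filled circles, replicate numbers beside them and a bar for the group mean. In the ER panel control replicates 1 and 2 lie above the Stau1 arrays while control replicate 3 is the lowest point, and in the cytosolic panel control replicate 3 lies among the Stau1 arrays.

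Leaving out single arrays changed the sign of the cytosolic median but not that of the ER median. The ER median ran from -0.135 without control replicate 1 to -0.0768 without control replicate 2, below 0 in each case. Each such set still held control replicate 1 or 2, the arrays on which the centred ER median was highest. The cytosolic median ran from -0.00302 without control replicate 2, where 6 genes were higher and 9 lower, to 0.0828 without Stau1 replicate 1. Control replicate 3 was the control nearest to the Stau1 arrays, so leaving it out by itself favours larger differences. Without it, 39 rows of the whole table passed the test, none of them a chaperone gene, and 12.7% had an unadjusted p under 0.05. The chaperone genes under that p were then HSPB1 (-0.409), CALR (-0.415), SDF2L1 (-0.265) and HSPA5 (-0.355), with adjusted p of 0.185 to 0.356 by limma. Median scaling in place of quantile normalization moved the median of all kept rows to 0.0679. Relative to that shift 12 of 15 cytosolic genes still lay above and 12 of 13 ER genes below, whereas against 0 only 9 of the ER genes were lower.

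**Figure D4:**
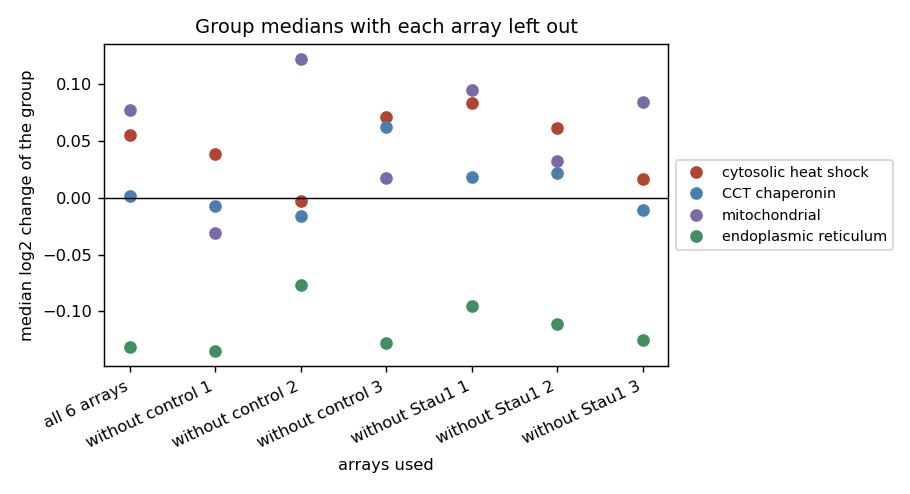
Median log2 difference of each compartment (y axis) with all 6 arrays and with each array left out in turn (x axis). The ER points stay between -0.135 and -0.0768, while the cytosolic, CCT and mitochondrial points cross 0 in at least 1 case.

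Beyond the 40 genes, 119 other symbols of chaperones, co-chaperones, chaperonin cofactors, mitochondrial factors and ER folding and stress genes were listed by role. The table held 109 of them and 93 were kept, 40 with a higher and 53 with a lower mean, with a median difference of -0.02. None passed the test. An unadjusted p under 0.05 by limma was held by 1 of the 93, beside 3.73% of all kept rows. It was ARMET of the ER list, with a difference of -0.20 (SE 0.09, adjusted p = 0.999 by limma). The groups did not overlap in 4 of the 93, 1 higher and 3 lower with Stau1, beside 7.91% of all kept rows. The 38 kept ER and unfolded protein response genes had 14 higher and 24 lower means with a median of -0.04, nearer to 0 than that of the 13 ER chaperones above. The list of cytosolic chaperones and co-chaperones had 19 higher and 14 lower with a median of 0.03. The list of chaperonin cofactors had 2 higher and 8 lower with a median of -0.05. It also held the CCT subunits CCT6A (0.02) and CCT6B (-0.08). Mitochondrial factors had 5 higher and 7 lower with a median of -0.01.

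The ends of that list were mostly dim rows, some of them with wide spread among the controls. DNAJC2, a ribosome-associated J-domain protein, read 4.99, 6.34 and 6.05 in the controls and 6.03, 6.20 and 6.15 with Stau1, a difference of 0.33 (SE 0.27) with control replicate 1 far below the other arrays. CLPB, a mitochondrial disaggregase, read 5.25, 5.39 and 5.67 against 5.59, 5.63 and 6.06, a difference of 0.33 (SE 0.17) with overlap. PPID, the Hsp90-binding cyclophilin 40, read 8.30, 7.18 and 6.41 against 6.63, 6.97 and 7.07, a difference of -0.40 (SE 0.34) within a control range wider than any seen among the kept chaperone genes. ERO1LB, an oxidase that renews disulfide isomerases, read 6.80, 7.07 and 6.59 against 6.41, 6.58 and 6.46. Its groups did not overlap and the difference was -0.34 (SE 0.16).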

How the data were processed

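Total RNA of 6 samples was hybridised to Illumina HumanWG-6 v3 arrays. The deposited signal intensity of each gene was, per the file headers, a mean over the probes of the gene, to which the authors had applied no background subtraction and no normalization. The deposited detection p-value set it against negative control beads. A standard error over beads (a signal in intensity units) and a mean number of beads (kept as a score) were deposited beside it. No slide was named, so none was used as a block.

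In R 4.3.3, limma 3.58.1 was used for normexp (offset 16), quantile normalization and log2. Background was inferred from the detection p of the 30932 rows of 1 probe (whole bead counts, steps of 1 in 759, tolerance 0.002 steps). Of 37879 rows, 13285 (35.1%) were kept, those detected at p under 0.05 on at least 3 arrays. Groups were compared by lmFit and eBayes (trend on), p-values were adjusted over kept rows by Benjamini-Hochberg, and the threshold was 0.05. Simulated data with 200 changed rows were used to test the fit, which recovered 81% of them at 2-fold and 1% at 1.5-fold. An exact permutation test of 3 against 3 arrays has a smallest p of 0.1. Median intensity was 83.0 to 102.2 and 12730 to 13469 rows were detected per array; their number limits the precision.

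The genes and lists were chosen with earlier results of these data known. Values on every array were given for genes with an unadjusted p under 0.05, for the highest and lowest difference of each group, and for HSPA1A, HSPA1B, DNAJB1, BAG3, HSPA5, XBP1, HERPUD1, DNAJB9, HSF1 and HSF2; values of HSP90AA1, HSPD1 and CCT8 were added after they were seen. Of the other listed genes, the 2 highest and 2 lowest differences were named, and ARMET was named for its unadjusted limma p under 0.05. Promoter windows came from RefSeq (GRCh38.p14); PDIA3 and HSF1 were not analysed there. Alternatives were other background corrections, offsets, normalizations and filters, array weights, no variance trend, a replicate block, the methods' t-test and leaving out each array.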

Additional observations from a re-analysis of the deposited data

How the results depend on the processing

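Under the alternatives, 0 chaperone genes passed the adjusted threshold, and their lowest adjusted limma p ran from 0.185 to 1. The methods' t-test, two-sided with equal variances, gave 462 kept rows and 1 chaperone gene (XBP1, not HSPB1) under an unadjusted 0.05 and 0 of either after adjustment. With all 6 arrays, 29 of 38 genes kept the sign of their difference, and with each array left out 15 of 38 did. Median scaling gave group medians of 0.151 (cytosolic) and 0.0824 (CCT), and positive differences for HSPA8 (0.0346), HSF2 (0.0273), CCT3 (0.0739), CCT8 (0.0515), HSPA9 (0.0549), CANX (0.0539), PDIA6 (0.0147) and DNAJB11 (0.000468), beside the shift of all rows to 0.0679. Array weights gave a mitochondrial median of -0.0270, CCT3 at 0.0608 and HSPD1 at -0.0270. With these weights 3 chaperone genes (HSPA1B at 0.228, HSPB1 at -0.302 and STIP1 at 0.214) and 9.72% of all kept rows had an unadjusted p under 0.05. The cause was not tested.

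Leaving out single arrays gave 0 to 39 called rows in the whole table, a cytosolic median of -0.00302 to 0.0828 and a mitochondrial median of -0.0309 to 0.122. Differences that crossed 0 ran, in the cytosolic group, from -0.0565 to 0.0141 for HSPA8, -0.0187 to 0.134 for HSPH1, -0.0454 to 0.244 for HSP90AA1, -0.0231 to 0.0609 for HSP90AB1, -0.0198 to 0.118 for DNAJA1, -0.000132 to 0.106 for DNAJB6, -0.00302 to 0.158 for BAG3, -0.0623 to 0.257 for HSF1, -0.148 to 0.0186 for HSF2, -0.0199 to 0.203 for STIP1 and -0.0233 to 0.0673 for AHSA1. In CCT they ran from -0.0406 to 0.205 for TCP1, -0.0777 to 0.122 for CCT3, -0.0282 to 0.0401 for CCT5, -0.0163 to 0.173 for CCT7 and -0.187 to 0.0640 for CCT8. In mitochondria they ran from -0.119 to 0.0478 for HSPA9 and -0.112 to 0.193 for HSPD1. In the ER they ran from -0.355 to 0.0131 for HSPA5, -0.128 to 0.0728 for CANX, -0.162 to 0.0246 for PDIA6, -0.266 to 0.111 for DNAJC3 and -0.0496 to 0.112 for HYOU1.

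The labels do not say whether same-numbered samples were handled together. Correlations of their deviations were 0.0154, 0.259 and -0.139. With the replicate block, 0 rows were called and 605 had an unadjusted limma p under 0.05, beside 496 without the block. HSPB1 had an adjusted limma p of 0.985 with it. The block changed no call.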
